A study of Homo sapiens with 2 samples.

Results

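Cycling endocrine cells were the cells, in 2 single-cell RNA libraries of stem cell-derived beta cell clusters, that held transcripts of proliferation genes together with the endocrine granule gene CHGA and none of the progenitor genes SOX9 and TM4SF1. Members were chosen by measured counts, so what chose them is not a finding. A cell was taken when it had at least 2000 UMIs (unique molecular identifiers, each standing for 1 captured RNA molecule), a mitochondrial share under 20%, at least 4 UMIs of MKI67 and TOP2A together, at least 1 UMI of CHGA, and 0 UMIs of SOX9 and TM4SF1. By this rule 710 of 27668 cells that passed the depth and mitochondrial limits met the rule without DOX (2.57%, exact binomial 95% interval 2.38 to 2.76), as did 670 of 29350 with DOX (2.28%, 2.11 to 2.46). They numbered 1380 of 57018 such cells and of 62105 barcodes in all. Paired values below are given for the library labelled no DOX first and the library labelled DOX second.

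Both libraries came from iSOX9KO cells, made from the Mel1-INS-GFP human embryonic stem cell line, in which the insulin locus drives green fluorescent protein. The line expresses guide RNAs against SOX9 at all times and carries a Cas9 gene that doxycycline (DOX) switches on, so the cells without DOX held the same guides and cassette. Cells of 1 library had no doxycycline, and those of the other had 2 ug/ml from day 12 of the differentiation. Per the study's methods, GFP-high cells were sorted and reaggregated into enhanced beta clusters (eBCs), and after the first clones had been characterised the work used 1 clone, so both libraries stand for that clone. There was 1 library per condition, so no difference between conditions was tested, cells are not replicates, and every interval covers counting error only. Over all cells that passed the limits, SOX9 stood at 3.23 and 3.95 counts per 1000000 UMIs (CPM), no lower in the library labelled DOX, and an RNA count does not read whether the gene was cut. Directions between the libraries therefore rest on the labels alone.

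The proliferation markers were high in these cells and CHGA stood at the level of other endocrine cells, but the first endocrine progenitor marker was near 0. Because the rule used MKI67, TOP2A and CHGA, their levels are a description. CENPF, a centromere protein of dividing cells, had a UMI in 92.1% and 90.7% of members against 1.74% and 1.28% of non-cycling endocrine cells, which met the same rule but held 0 UMIs of MKI67 and TOP2A (24859 and 26893 cells). RRM2, a subunit of the enzyme that makes deoxynucleotides, had a UMI in 93.4% and 94.0% of members against 2.03% and 1.65%. NEUROG3, the transcription factor that starts endocrine commitment, had a UMI in 3 members of each library, at 0.203 and 0.240 CPM, which was 0.42% and 0.45% of members against 0.33% and 0.19% of non-cycling endocrine cells. The members are called cycling endocrine cells here and not progenitors, a choice that rests on NEUROG3 alone, which was low in non-cycling cells too. Other progenitor markers went either way against non-cycling cells. FEV had log2 ratios of CPM of 0.33 and 0.23, SOX4 of 0.52 and 0.38, and INSM1 of 0.31 and 0.24. PAX4 was at -0.11 and -0.34, and TPH1 at 0.18 and -0.001. CHGA separated little by itself, since 100% of the cycling cells with SOX9 and TM4SF1 (107 and 79 cells) also held a CHGA UMI, and 0 of the 868 and 832 cycling cells lacked one. Its level did separate them, at medians of 144 and 127 UMIs per 10000 in members, 140 and 127 in non-cycling endocrine cells and 16.8 and 14.4 in those SOX9 and TM4SF1 cells.

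Members were deeper than their neighbours, and many were called doublets. The rule asks for a number of MKI67 and TOP2A UMIs without scaling to depth, and non-cycling cells lacked both. It thus favours deep cells, doublets among them, as members, and its part in these differences was not tested. The median depth of members was 25214 and 22461.5 UMIs against 16601 and 14861 in non-cycling endocrine cells, with 5482 and 5145 genes against 3896 and 3670. Endocrine cells with 1 UMI of MKI67 and TOP2A, outside the rule, had median depths of 20500 and 17980 UMIs. Scrublet, which scores each cell by its likeness to simulated pairs of cells, called 371 (52.3%) and 345 (51.5%) members doublets, against 25.7% and 26.1% of non-cycling endocrine cells. Results are therefore given with these cells and, for the genes and classes on which they turn, also without them. Without them 339 and 325 members remained, which was 1.70% and 1.53% of the cells kept. Of the cycling cells with SOX9 and TM4SF1, 46.7% and 39.2% were called doublets too, and values of that group include them unless stated. Leaving them out moved CHGA of that group from 6072 and 5339 to 1027 and 1684 CPM. Its INS moved from 61545 and 37125 to 13810 and 16409 CPM. The libraries shared 369 barcode sequences, and 12 members had a barcode that also occurred in the other library. At the threshold, the 75 and 60 endocrine cells with exactly 4 UMIs of MKI67 and TOP2A had 91.2 and 97.5 CPM of CENPF, and the 88 and 81 cells with 3 UMIs, just outside, had 83.3 and 63.6 CPM.

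A dividing cell copies its DNA in S phase and separates the copies in mitosis, after G2 phase. Genes of DNA replication are switched on before S phase by E2F transcription factors, and genes of mitosis later by complexes that contain MYB and FOXM1 factors and bind a promoter element called the CHR (cell cycle genes homology region), often beside CCAAT boxes bound by NF-Y. Most pancreatic endocrine cells leave the cell cycle as they form, and human beta cells divide rarely, held by inhibitors of the cyclin-dependent kinases (CDKs).

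Promoter sequence of the cycle genes was read first, because it did not enter the rule for the members. The lines give the 100 bases before the first listed RefSeq start on GRCh38.p14, 5′ to 3′ on the gene's strand. Capitals mark 3 kinds of motif, each searched on both strands. The CHR has the letters TTTGAA, with TTTAAA as a variant of it. The CCAAT box is named by its letters and reads ATTGG on the other strand. The E2F core was searched as TTTGGCG and also as TTTCCCG. MKI67 is shown because it chose the members, CCNB2, PLK1 and CDC20 for mitosis, RRM2, CDC6 and E2F1 for the start of DNA synthesis, and CHGA as the endocrine gene of the rule.
MKI67, chr10:128126424-128126523, minus strand: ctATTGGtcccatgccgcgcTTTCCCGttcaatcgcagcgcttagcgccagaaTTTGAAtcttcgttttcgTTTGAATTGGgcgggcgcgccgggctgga
CCNB2, chr15:59105046-59105145, plus strand: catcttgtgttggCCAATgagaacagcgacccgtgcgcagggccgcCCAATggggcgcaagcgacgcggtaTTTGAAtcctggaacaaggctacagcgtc
PLK1, chr16:23678789-23678888, plus strand: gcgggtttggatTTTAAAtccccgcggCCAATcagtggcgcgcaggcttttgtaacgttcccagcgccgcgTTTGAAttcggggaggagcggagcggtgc
CDC20, chr1:43358881-43358980, plus strand: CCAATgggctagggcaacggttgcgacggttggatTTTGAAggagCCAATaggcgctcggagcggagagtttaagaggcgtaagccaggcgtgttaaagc
RRM2, chr2:10122639-10122738, plus strand: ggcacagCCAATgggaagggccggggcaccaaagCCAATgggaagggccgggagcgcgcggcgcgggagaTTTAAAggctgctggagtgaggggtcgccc
CDC6, chr17:40287779-40287878, plus strand: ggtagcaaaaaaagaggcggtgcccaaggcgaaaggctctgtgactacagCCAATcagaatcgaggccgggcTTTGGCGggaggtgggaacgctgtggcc
E2F1, chr20:33686386-33686485, minus strand: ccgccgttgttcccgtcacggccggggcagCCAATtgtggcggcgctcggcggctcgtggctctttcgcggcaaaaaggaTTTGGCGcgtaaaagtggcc
CHGA, chr14:92923050-92923149, plus strand: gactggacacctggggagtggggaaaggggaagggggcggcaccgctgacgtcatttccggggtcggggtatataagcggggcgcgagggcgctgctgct
In MKI67 the second CHR and a CCAAT box on the other strand overlap, and the CHGA window held none of these letters. The windows shown are not typical of all cycle genes. TOP2A, which also chose the members, had 2 CCAAT boxes and no other motif in its window. The same window of CDK1 held 0 motifs, and those of CENPF and the cyclin gene CCNA2 held CCAAT boxes only. Over windows from 250 bases before to 50 after the start, TTTGAA occurred in 30 of the 44 matched promoters of the G2M list (68.2%), against 9.53% of the 5435 matched promoters of the genes compared below and 15.4% of all 27305 promoters. Lists of mitosis differed, with TTTGAA in 3 of 10 matched promoters of mitotic kinases and phosphatases. It was in 14 of 18 of spindle and cytokinesis genes and 8 of 14 of condensin, cohesion and chromosome passenger genes. It occurred in 2 of 50 matched promoters of the S and replication lists combined (4%), and an E2F core occurred in 26 of those 50 (52%), in 8 of 44 of the G2M list (18.2%) in 9.81% of the promoters of the genes compared and in 6.11% of all promoters. The CCAAT box was as common in one as in the other, at 68.2% (30 of 44) and 64% (32 of 50), against 35.7% of all promoters. It was as common in the endocrine transcription factor list, at 65% (13 of 20), so it did not set the cycle lists apart. These matches describe letters and not binding.

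Members were next compared with non-cycling endocrine cells. UMIs were summed over the cells of each group, and a gene was counted when it was at least 2-fold higher, or lower, in both libraries and reached 20 CPM in 1 of the 4 sums. Of 6514 genes, 420 were higher (6.45%) and 4 were lower (0.0614%): CDKN1C, FABP1, RBP4 and MT1H. The rule chose cells on 2 genes of this very contrast, so these counts are a description. A gene could also reach 20 CPM through members alone, which ties the filter to the fold. Of the 420 genes 166 were in the gene lists used here. Without called doublets all 420 stayed past the fold among 757 of 6876 (11%), and the 4 lower genes did among 70 (1.02%). With non-cycling cells weighted to the members' hormone classes, described below, 0 genes were 2-fold lower.

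**Figure D1:**
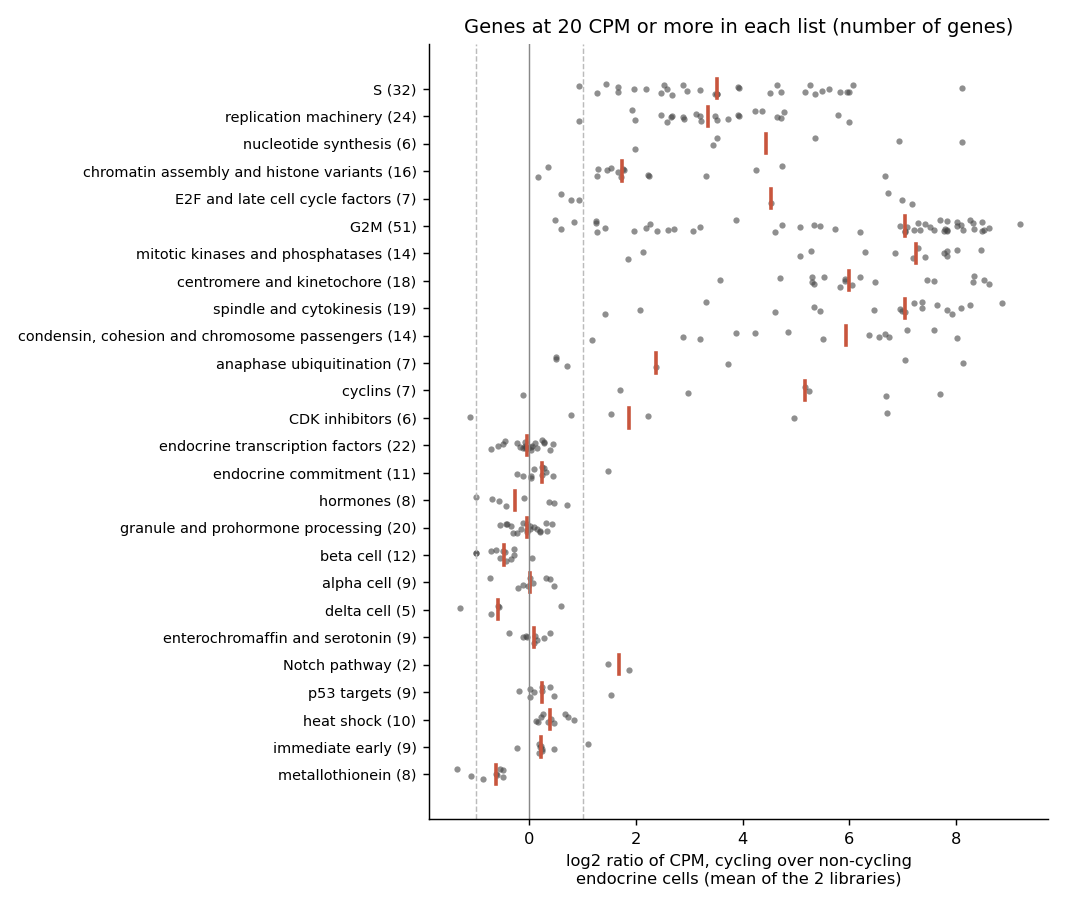
Each point is a gene of a named list that reached 20 CPM, at its log2 ratio of CPM in cycling over non-cycling endocrine cells (mean of the 2 libraries). Red bars are list medians, dashed lines mark 2-fold, and the number of genes stands in brackets. Lists of the cell cycle lie to the right of the 2-fold line, and the hormone, granule and transcription factor lists lie about 0.

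Genes of DNA synthesis were higher as a group. Of 43 genes of the S list 31 were past the fold, with a median log2 ratio of 3.84 and 3.99 against 0.11 and 0.10 over all genes compared, and of 33 genes of the replication machinery 23 were. PCNA, the clamp that holds polymerase on DNA, stood at 159 and 177 CPM in members and 18.3 and 18.3 in non-cycling cells, a log2 ratio of 3.11 (3.05 to 3.17) and 3.27 (3.21 to 3.33). The helicase subunit MCM3 stood at 66.8 and 72.4 against 9.61 and 9.10 CPM. RPA2, a subunit of the protein that coats single-stranded DNA, missed the fold at 0.92 and 0.94.

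All 6 genes of nucleotide synthesis were past the fold. RRM2 was the furthest, at 332 and 328 CPM against 1.2 and 1.15, a log2 ratio of 8.06 (7.93 to 8.18) and 8.16 (8.03 to 8.29), and TK1, thymidine kinase, stood at 56.0 and 55.2 against 0.455 and 0.456. RRM2 was also higher in cycling endocrine cells than in the cycling cells with SOX9 and TM4SF1, which had 54.7 and 74.4 CPM. TYMS, thymidylate synthase, went the other way, at 76.6 and 85.2 CPM in members and 163 and 192 in those cells.

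Histone genes went in both directions. Histone variants and chromatin assembly factors were higher in 14 of 20 genes, among them H2AFZ, at 1636 and 1706 against 469 and 507 CPM, while H3F3A, a replacement histone, had log2 ratios of 0.19 and 0.14. Of 71 replication histone genes 18 reached 20 CPM and 9 were past the fold. HIST1H4C was the most abundant, at 1035 and 1238 against 108 and 103 CPM. HIST1H2AC and HIST3H2A were below their non-cycling level, with log2 ratios of -0.81 and -0.77 and of -0.85 and -0.73, and both were past 2-fold lower without called doublets. Replication histone messages mostly lack a poly(A) tail and many are near copies of each other, so their counts are uncertain.

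Most genes of mitosis were past the fold. The G2M list also holds MKI67 and TOP2A, which chose the members and are left out of its counts. Of 52 genes of the G2M list 48 were past the fold, with a median log2 ratio of 7.03 and 7.01. The same held for 14 of 15 mitotic kinases and phosphatases, 18 of 21 centromere and kinetochore genes, 19 of 20 spindle and cytokinesis genes, and 14 of 16 genes of condensin, cohesion and chromosome passengers. DLGAP5, a spindle protein, ranked first by the lower of its ratios in the 2 libraries, at 110 and 108 CPM against 0.178 and 0.192, or 9.27 (8.96 to 9.61) and 9.13 (8.83 to 9.46) on the log2 scale. ASPM, which holds spindle poles together, stood at 125 and 115 against 0.277 and 0.242 CPM.

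Kinases and their machinery followed the same order of size. CDK1, the kinase of mitotic entry, stood at 163 and 172 CPM against 0.775 and 0.700, PLK1 at 58.2 and 55.1 against 0.722 and 0.731, and AURKB, of the chromosome passenger complex, at 75.1 and 77.4 against 0.311 and 0.281. Of 7 genes of anaphase ubiquitination, the step that releases sister chromosomes, 4 were past the fold, with a list median of 2.39 and 2.37. These were CDC20, UBE2C, UBE2S and FBXO5, whereas the core subunits CDC27 and ANAPC11 had log2 ratios of 0.67 and 0.73 and of 0.52 and 0.47. Among the E2F and late cell cycle factors 4 of 15 were past the fold, of 7 that reached 20 CPM: E2F1, FOXM1, MYBL2 and E2F7, the last named after its values were seen. E2F1 stood at 59.3 and 59.2 CPM in members, 2.50 and 2.60 in non-cycling cells and 10.5 and 9.24 in cycling cells with SOX9 and TM4SF1.

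Cyclins, the activating partners of CDKs, were mostly higher, and the D-type cyclins, which act first, differed among themselves. Of 9 cyclins 6 were past the fold, and CCNE1, which did not reach 20 CPM, had log2 ratios of 3.22 and 3.43. The mitotic cyclin CCNB1 stood at 145 and 132 against 3.72 and 3.59 CPM, and CCNB2 at 74.0 and 73.8 against 0.375 and 0.340. CCND3 was the only D-type cyclin past the fold, at 42.7 and 43.7 CPM in members against 13.6 and 13.1, a log2 ratio of 1.65 (1.55 to 1.76) and 1.74 (1.63 to 1.85). It had a UMI in 62.3% and 59.6% of members against 21.6% and 19.0%, and without called doublets its ratios were 2.17 and 2.31. CCND3 was above its non-cycling level in each of the 5 hormone classes described below, by 1.36 to 2.18 on the log2 scale.

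The other D-type cyclins did not follow it. CCND1 stood at 11.6 and 13.9 CPM in members and 13.7 and 13.2 in non-cycling endocrine cells, and at 668 and 592 in the cycling cells with SOX9 and TM4SF1. Without called doublets CCND1 stood at 1165 and 887 CPM in that last group. CCND2 stood at 60.9 and 45.0 against 64.4 and 50.5 CPM. In those SOX9 and TM4SF1 cells CCND3 was at 11.9 and 9.24 CPM, lower than in members by 1.84 (2.38 to 1.36) and 2.24 (2.98 to 1.59) on the log2 scale, and the E-type cyclin CCNE2 at 5.44 and 4.86 against 30.7 and 36.5 in members. The plot of cyclins and inhibitors gives the levels of all 3 groups.

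**Figure D2:**
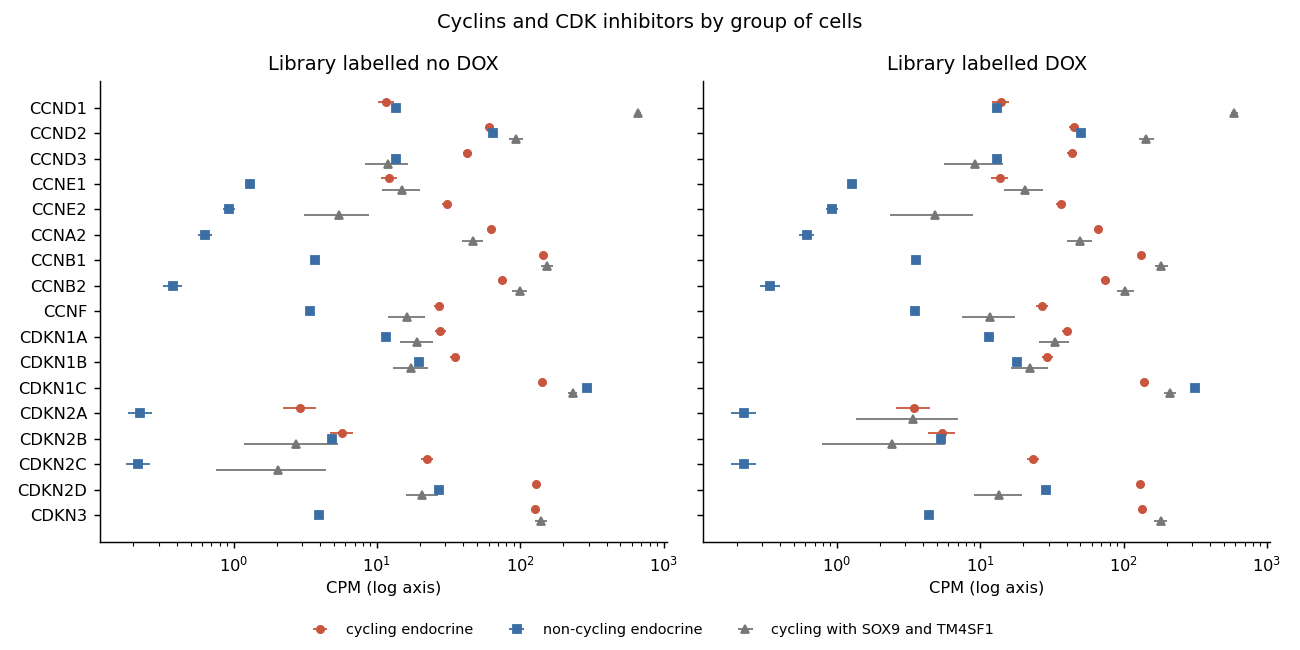
CPM of summed UMIs on a log axis for cyclins and CDK inhibitors in cycling endocrine cells, non-cycling endocrine cells and cycling cells with SOX9 and TM4SF1, in each library. Bars are exact Poisson 95% intervals, and a gene with 0 UMIs in a group is not drawn. CCND1 lies to the right only in cells with SOX9 and TM4SF1, and CDKN2C and CDKN2D lie to the right in cycling endocrine cells.

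CDK inhibitors, which slow or stop the cycle, went in both directions. Of 8 inhibitors 4 were past the fold upward (CDKN2C, CDKN2D, CDKN3 and CDKN1A) and CDKN1C was past it downward. CDKN2C, an inhibitor of the D-type cyclin kinases on chromosome 1 (GRCh38, 50960745 to 50974634), stood at 22.3 and 23.4 CPM against 0.216 and 0.225, a log2 ratio of 6.69 (6.38 to 7.02) and 6.71 (6.39 to 7.03). It had a UMI in 37.2% and 38.4% of members against 0.39% and 0.36% of non-cycling endocrine cells. Without called doublets its ratios were 7.37 and 7.71. In cycling cells with SOX9 and TM4SF1 it had 6 and 0 UMIs, or 2.04 and 0 CPM. Against the 1.46 CPM that 3 UMIs would give in that second group, members were at least 16.1-fold higher.

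CDKN2D, of the same family, stood at 128 and 131 CPM in members, 27.0 and 28.8 in non-cycling cells and 20.7 and 13.6 in cycling cells with SOX9 and TM4SF1, with log2 ratios over non-cycling cells of 2.25 and 2.18, or 2.93 and 2.75 without called doublets. CDKN2A, at 2.90 and 3.43 CPM, and CDKN2B, at 5.70 and 5.41, were too low to be counted. CDKN3, a phosphatase that acts on mitotic CDKs, stood at 127 and 134 CPM in members and was as high, at 139 and 182, in cycling cells with SOX9 and TM4SF1. CDKN1B missed the fold with log2 ratios of 0.84 and 0.71, and passed it without called doublets at 1.22 and 1.05.

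CDKN1C, an inhibitor from an imprinted locus that is known from resting beta cells, was the lower gene of the family. It stood at 141 and 139 CPM in members and 290.3 and 316 in non-cycling cells, a log2 ratio of -1.04 (-1.09 to -0.98) and -1.18 (-1.24 to -1.13). Without called doublets the levels were 61.8 and 56.0 against 296 and 320.3 CPM, and the ratios -2.26 and -2.52. It was below its non-cycling level in all 5 hormone classes. The ratios were -0.59 and -0.49 in GCG-rich, -0.50 and -0.74 in FEV-rich and -0.59 and -0.85 in SST-rich cells. They were -1.32 and -1.29 in INS-rich cells, and -2.07 and -2.17 in the class below all of those limits. Called doublets were 41.9% and 47.5% of INS-rich members and 11.1% and 8.16% of that last class. Among GCG-rich members 64.0% and 50.9% were called, among FEV-rich 56.8% and 59.3% and among SST-rich 61.0% and 68.4%. These class ratios include called doublets, and the part of doublets in their order was not tested. Across cells with rising counts of MKI67 and TOP2A, the counts that chose the members, it stood at 283 and 292 CPM with 1 UMI, 195 and 156 with 4, and 114 and 115 with 32 or more. The fall was not steady, with 183 and 179 CPM at 2 UMIs and 227 and 180 at 3. It stood at 132 and 126 CPM with 5 to 7 UMIs and 154 and 155 with 8 to 15. Called doublets were 43.3% and 40.4% of the cells with 1 UMI, 62.7% and 71.7% with 4 and 26.7% and 27.0% with 32 or more. The levels by UMI count include these doublets, and their part in the fall was not tested.

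CDKN1A, the inhibitor that p53 induces, was higher in members at 27.7 and 40.0 CPM against 11.6 and 11.5, a mean log2 ratio of 1.53 over the libraries, and of 2.17 without called doublets (1.99 and 2.36). Within classes the ratio was 2.61 and 2.80 in INS-rich cells and 2.61 and 2.54 in the other class. It was 0.38 and 0.94 in FEV-rich, 0.68 and 1.21 in GCG-rich and 1.03 and 2.27 in SST-rich cells. These class ratios include called doublets, whose share was lowest in the other class and next lowest in INS-rich members. The part of doublets in the order of the classes was not tested. Of 20 p53 targets 9 reached 20 CPM, and CDKN1A was the 1 past the fold, beside 6.45% of all genes compared. CDKN1A reached 20 CPM only in members, so the filter favoured its call. MDM2 and BAX, also induced by p53, had log2 ratios of 0.39 and 0.52 and of 0.40 and 0.39.

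Endocrine identity genes moved little by comparison. None of 9 hormones, 25 endocrine transcription factors, 21 counted granule and prohormone processing genes, 18 beta cell genes and 12 alpha cell genes was past the fold in either direction with all members. Of these lists 8, 22, 20, 12 and 9 genes reached 20 CPM, in the same order. INS stood at 116708 and 107187 CPM in members against 154217 and 149818, a log2 ratio of -0.40 and -0.48. Without called doublets the ratios of INS were -0.71 and -0.83. The median of the beta cell list was -0.43 and -0.50, and without called doublets 5 of its 18 genes were past 2-fold lower, beside 1.02% of all genes compared: IAPP, SLC30A8, ENTPD3, ERO1B and NPTX2. The alpha cell gene LOXL4 was past it as well, and ENTPD3, NPTX2 and LOXL4 are named after their values were seen.

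Single transcription factors differed by less than 2-fold in most cases, with list medians of -0.07 and -0.02 for the endocrine factors and -0.02 and 0.06 for the commitment genes. ISL1 stood at 171 and 179 against 262 and 264 CPM, and PDX1 at 55.7 and 60.5 against 76.7 and 87.4. MAFA, a factor of mature beta cells, was low in both groups, at 5.34 and 6.85 against 10.4 and 16.7 CPM. SOX4, which acts early in endocrine formation, stood at 251 and 253 against 175 and 195 CPM, and INSM1 at 447 and 440 against 361 and 373. PAX4 and NEUROD1, also of early endocrine cells, had log2 ratios of -0.11 and -0.34 and of -0.08 and -0.18, and NKX6-1, of beta cells, 0.14 and -0.04. Without called doublets MAFA had log2 ratios of -2.76 and -2.49, ISL1 -1.07 and -0.92, and SOX4 0.60 and 0.36.

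Other hormones went either way. GCG, glucagon, stood at 5579.6 and 6713 CPM in members against 4287 and 4565, and SST, somatostatin, at 20805 and 15148 against 30001 and 22956. IAPP, co-secreted with insulin, had log2 ratios of -1.15 and -0.84, but 10 cells held 70.9% and 60.6% of its UMIs in members. Without called doublets its ratios were -1.35 and -3.10, and those of GCG 0.22 and 1.18 and of SST -0.61 and -1.07. PPY had ratios of 0.99 and 0.44, with 68.5% and 54.0% of its UMIs in 10 cells.

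Of 15 Notch pathway genes 2 reached 20 CPM, and both were past the fold, beside 6.45% of all genes compared. HES6 reached 20 CPM only in members, so the filter favoured its call and this count is a description. HES4, a repressor downstream of Notch, stood at 106 and 130.5 CPM in members against 29.9 and 34.8, a log2 ratio of 1.82 (1.76 to 1.89) and 1.90 (1.84 to 1.97), and at 596 and 661 CPM in cycling cells with SOX9 and TM4SF1. HES6, which is active in endocrine precursors, stood at 48.5 and 50.1 against 17.8 and 17.6 CPM, and at 20.7 and 17.5 in those cells. It was also the only 1 of 17 endocrine commitment genes past the fold, 11 of which reached 20 CPM. HES1, the classical Notch target, stood at 11.1 and 17.4 CPM against 198 and 312 in cycling cells with SOX9 and TM4SF1. Without called doublets the HES1 level of that group was 268 and 401 CPM.

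The remaining lists held few or no genes past the fold. None of the 10 of 11 heat shock genes that reached 20 CPM was, with a median log2 ratio of 0.35 and 0.39, and the chaperone HSP90AA1 stood at 1477 and 1323 CPM against 879.5 and 809. None of 16 immediate early genes and none of 11 enterochromaffin genes was, of which 9 and 9 reached 20 CPM, and TPH1, which belongs to the latter, stood at 619.9 and 469 against 546 and 469 CPM. Of 8 delta cell genes RBP4, a carrier of retinol, was the lower one, at 12.0 and 14.1 CPM against 29.5 and 35.2. In members 10 cells held 55.1% and 42.7% of its UMIs. RBP4 had a UMI in 12.0% and 13.6% of members against 11.3% and 12.9% of non-cycling endocrine cells. Of 9 metallothioneins MT1H was lower, at 31.2 and 21.2 against 72.6 and 58.9 CPM, but 10 cells held 79.5% and 78.1% of its UMIs in members. FABP1, a fatty acid carrier of liver and gut, stood at 36.3 and 32.5 against 85.3 and 65.2 CPM, with 51.6% and 48.9% of its UMIs in 10 members. It had a UMI in 18.3% and 17.8% of members against 17.5% and 16.9% of non-cycling endocrine cells. Without called doublets the heat shock gene DNAJB1 and the immediate early gene ATF3 were past 2-fold higher, beside 11% of all genes compared, and the metallothioneins MT1E and MT1X were past 2-fold lower with MT1H. AGR2, a protein folding factor of secretory epithelium, was higher, at 34.2 and 13.5 CPM against 5.01 and 3.25, with 70.9% and 79.0% of its UMIs in 10 cells.

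Markers of other cell types were low. The 10 duct or pancreatic progenitor genes other than SOX9 and TM4SF1 summed to 516 and 521 CPM in members, in a range of 463 to 799 over the 5 hormone classes, against 597 and 544 in non-cycling endocrine cells and 3619 and 4299.6 in cycling cells with SOX9 and TM4SF1. Without called doublets the sum in that last group was 5397 and 5292 CPM. Only 3 of these 10 genes reached 20 CPM, and 0 of those 3 were past the fold. Pluripotent genes summed to 0.81 and 0.66 CPM against 0.578 and 0.648 in non-cycling endocrine cells, endothelial genes to 1.27 and 2.58 against 3.08 and 3.21, and mesenchymal genes to 8.50 and 11.4 against 9.01 and 10.9. The highest duct sum, 799 CPM, was in the members without a hormone class in the library labelled DOX, where CCND1 was 45.4 and HES1 89.5 CPM. The part of ductal RNA in that class was not tested.

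Members were then placed in hormone classes, by UMIs per 10000 of the cell and in this order: SST-rich (at least 500), GCG-rich (at least 30), FEV-rich (FEV at least 5), INS-rich (at least 500) and other. FEV is a transcription factor of serotonin-type endocrine cells and of endocrine precursors. These classes are ranges and not cell types, and 95 and 82 members lay near the FEV limit and 76 and 71 near the INS limit (between 0.8 times the limit and the limit divided by 0.8). FEV-rich cells made up 46.6% (42.9 to 50.4) and 38.5% (34.8 to 42.3) of members against 32.2% and 29.2% of non-cycling endocrine cells. INS-rich cells made up 24.2% (21.1 to 27.6) and 29.9% (26.4 to 33.5) against 41.2% and 49.2%. Because of the order, INS-rich means the cells left after the SST, GCG and FEV limits. Regardless of class, 73.7% and 70.3% of members were above the INS limit.

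The smaller classes also differed. GCG-rich cells were 12.5% and 15.8% of members against 7.80% and 7.16%, SST-rich cells 11.5% and 8.51% against 16.1% and 12.2%, and the other class 5.07% and 7.31% against 2.73% and 2.20%. Called doublets were unevenly spread over these classes, from 11.1% and 8.16% of the other class to 64.0% of GCG-rich members in the library labelled no DOX and 68.4% of SST-rich members in the other. Without them FEV-rich cells were 42.2% and 32.3% and INS-rich cells 29.5% and 32.3% of members, against 29.7% and 27.1% and 45.0% and 53.4% of non-cycling endocrine cells.

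**Figure D3:**
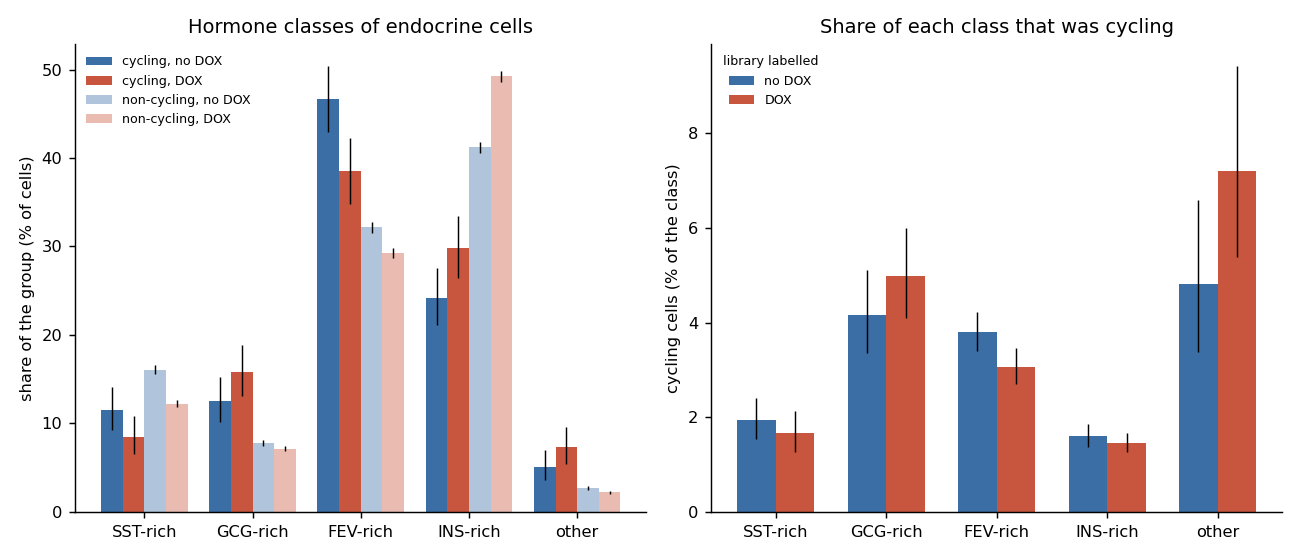
Left, percent of cycling and of non-cycling endocrine cells in each hormone class, by library. Right, percent of the endocrine cells of each class that were cycling. Bars start at 0 and error bars are exact binomial 95% intervals. FEV-rich bars are taller in cycling cells and INS-rich bars taller in non-cycling cells, and the cycling share is lowest in INS-rich and SST-rich cells.

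The share of each class that cycled was lowest in INS-rich and SST-rich cells. It was 1.60% (1.38 to 1.86) and 1.45% (1.26 to 1.67) of INS-rich cells, 1.94% and 1.66% of SST-rich cells, 3.79% (3.40 to 4.21) and 3.06% (2.70 to 3.45) of FEV-rich cells, 4.17% (3.36 to 5.11) and 4.99% (4.10 to 6.0) of GCG-rich cells, and 4.81% (3.39 to 6.59) and 7.21% (5.38 to 9.41) of the other class. The intervals of FEV-rich and GCG-rich cells overlapped in the library labelled no DOX and not in the other, and those of GCG-rich cells and the other class overlapped in both. FEV-rich cells cycled 2.36 and 2.10 times as often as INS-rich cells, and GCG-rich cells 2.60 and 3.43 times. The neighbours INS-rich and SST-rich did not differ beyond counting error, with log2 ratios of 0.28 (-0.12 to 0.66) and 0.19 (-0.26 to 0.62). With each cell thinned to 5000 UMIs and 2 UMIs of MKI67 and TOP2A required, FEV-rich cells cycled 1.89 and 2.03 times as often as INS-rich cells, and GCG-rich cells 2.05 and 2.87 times. Thinning left out 1105 and 696 cells under 5000 UMIs. Without called doublets the cycling shares were 1.16% and 0.963% of INS-rich, 1.14% and 0.827% of SST-rich, 2.46% and 1.86% of FEV-rich, 2.30% and 3.98% of GCG-rich cells, and 4.45% and 6.97% of the other class.

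INS-rich and FEV-rich members held somewhat less of the gene that defined their class. INS-rich members had 0.37 and 0.35 less INS on the log2 scale than INS-rich non-cycling cells, and FEV-rich members 0.26 and 0.29 less FEV. TPH1, the enzyme of serotonin synthesis, stood at 1043 and 919 CPM in FEV-rich members against 1419 and 1397. In INS-rich members FEV and TPH1 were above their non-cycling level, by 0.49 and 0.72 and by 0.71 and 1.03. The higher FEV over all members, with ratios of 0.33 and 0.23, became a mean of -0.09 once non-cycling cells were weighted to the members' classes. Since a class is cut on FEV itself, this weighting evens out FEV in part by design.

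**Figure D4:**
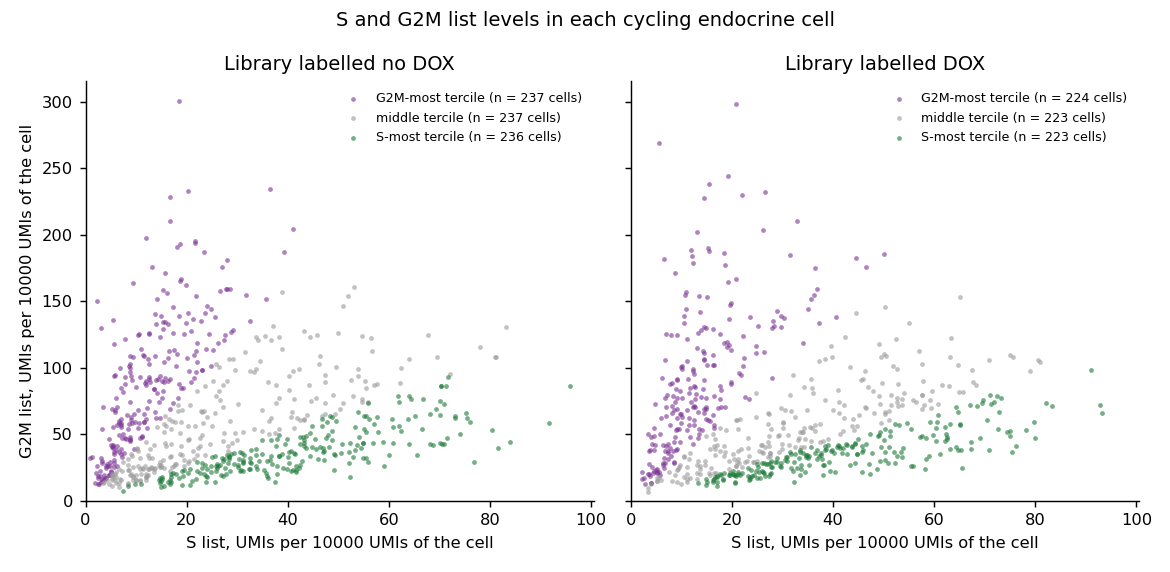
Each point is 1 cycling endocrine cell, by its UMIs per 10000 of the S list (x) and the G2M list (y) in each library. Colours give terciles by the share of S list UMIs in both lists, and the terciles hold 223 to 237 cells each. G2M-most cells lie nearest the y axis, at medians of 11.5 and 12.4 for the S list and 89.4 and 80.3 for the G2M list. S-most cells held nearly as much of the G2M list, at medians of 33.9 and 34.3, as of the S list, at 40.5 and 40.2. Middle cells lie between them.

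To follow genes along the cycle, members of each library were ordered by the share of S list UMIs in the sum of the S and G2M lists and cut into terciles. The median share was 13.3% and 14.1% in the G2M-most tercile, 32.4% and 38.5% in the middle one and 52.6% and 52.6% in the S-most. Of 6839 genes, 132 were at least 2-fold higher (1.93%) and 61 at least 2-fold lower (0.892%) in the S-most than in the G2M-most tercile in both libraries, with genes of the 2 ordering lists left out. A few cycle genes outside those lists serve as a check of the order. CCNE1, the cyclin of S phase entry, stood at 27.3 and 27.2 CPM in the S-most and 1.60 and 1.09 in the G2M-most tercile, and E2F1 at 113 and 100.3 against 17.8 and 17.2. CCNB1 stood at 32 and 26.6 against 307 and 289, and PTTG1, the securin that holds sister chromosomes, at 52.5 and 48.7 against 543 and 534.

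CCND3 and the inhibitors that set members apart lay on opposite sides. CCND3 stood at 65.2 and 60.6 CPM in the S-most and 20 and 22.7 in the G2M-most tercile, a log2 ratio of 1.70 (1.41 to 2.01) and 1.42 (1.11 to 1.73). CDKN2D stood at 73.8 and 70.0 CPM in the S-most and 163 and 173 in the G2M-most tercile, and CDKN2C at 15.5 and 12.5 against 28.3 and 28.5. CDKN1C, at 101 and 97.8 against 158 and 184, leaned the same way, and CDKN1A was highest in the middle tercile, at 38.7 and 50.9 CPM. HIST1H4C was highest there too, at 1375 and 1784 CPM.

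Some genes outside the cycle also shifted. HES4 stood at 153 and 172 CPM in the S-most and 51.4 and 82.6 in the G2M-most tercile, while SOX4 stood at 165 and 176 against 321 and 364. The metallothionein MT1G stood at 270.1 and 108 against 679 and 330.4. For MT1G, 10 cells held 72.1% and 52.1% of the members' UMIs. INS, with log2 ratios of -0.11 and -0.04, and FEV, with 0.09 and 0.24, were nearly level. Called doublets were 42.8% and 41.3% of the S-most, 61.2% and 56.1% of the middle and 52.7% and 57.1% of the G2M-most tercile.

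**Figure D5:**
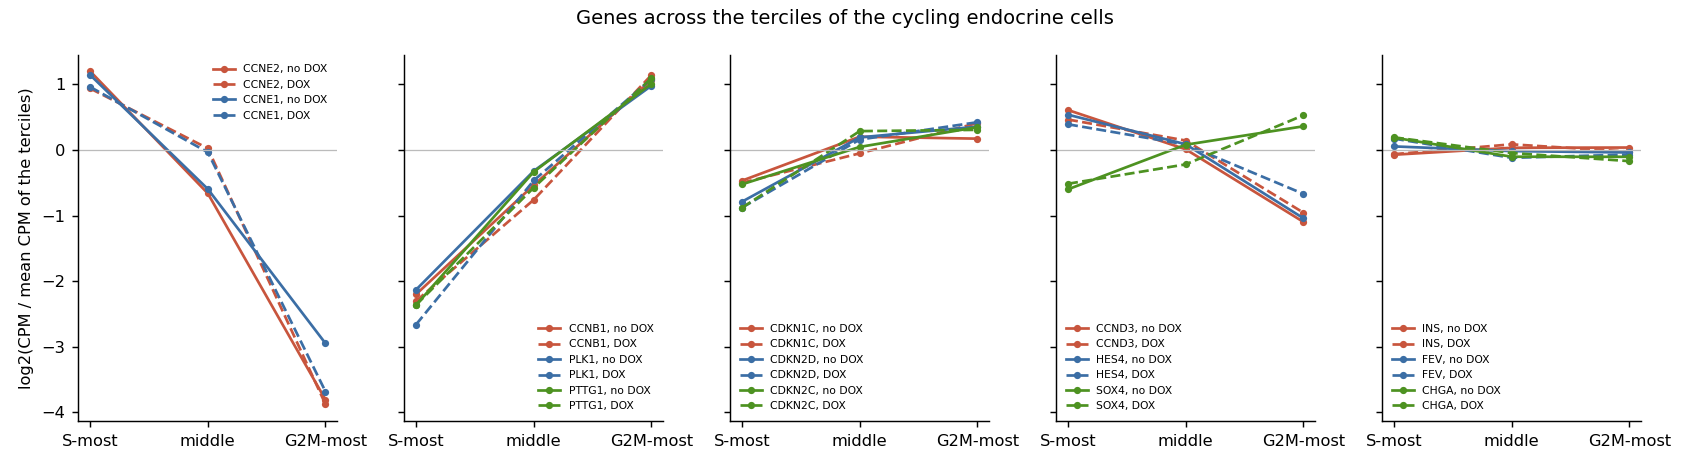
Level of selected genes across the terciles of cycling endocrine cells, as log2 of CPM over the mean CPM of the terciles. Solid lines are the library labelled no DOX and dashed lines the library labelled DOX. CCNE1 and CCNE2 slope down and CCNB1, PLK1 and PTTG1 slope up towards the G2M-most tercile, CCND3 and HES4 go with the former and SOX4 and CDKN2D with the latter. CCNE2 is in the S list that ordered the cells, so its slope follows from the ordering, and INS, FEV and CHGA are nearly flat.

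The study set cells with and without DOX side by side, and genes were counted here when at least 1.5-fold apart. Of 6371 genes at 20 CPM in 1 library, 11 were at least 1.5-fold higher (0.173%) and 18 at least 1.5-fold lower (0.283%) in the library labelled DOX, and in non-cycling endocrine cells 7 and 13 of 5687 were (0.123% and 0.229%). Without called doublets the members' counts were 27 and 58. With all members, no gene of the S, G2M, replication, cyclin, CDK inhibitor or endocrine transcription factor lists was among the 29. Without called doublets the cyclin CCND2 was past the limit, at 59.8 and 32.5 CPM, a log2 ratio of -0.88 (-1.14 to -0.63). So were the hormones GCG, at 0.95, SST, at -0.91, IAPP, at -1.62, and PPY, at 0.81, and TPH1, at -0.64. In non-cycling cells without called doublets these ratios were -0.02, -0.45, 0.13, 0.82 and -0.20, so PPY differed as much there. With all members GCG was at 0.27. IAPP went the other way with all members, on 1033 and 1215 UMIs, against 320 and 87 without called doublets. The median log2 ratio of the 43 genes of the S list was 0.15 in members and 0.04 in non-cycling cells.

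Among the lower genes were 2 of 11 heat shock genes, HSPA1A and HSPA1B. The median of all 11 was -0.11 in members and -0.12 in non-cycling cells. HSPA1A, an inducible chaperone, stood at 90.7 CPM in members of the library labelled no DOX and 36.4 in the other, a log2 ratio of -1.32 (-1.45 to -1.18), beside 98.0 and 28.5 CPM and -1.78 in non-cycling cells. HSPA1B had ratios of -1.20 and -1.49. These genes are near copies, so counts between them are uncertain. Their UMIs were spread widely, with 9.1% and 9.2% of HSPA1A in 10 cells. GAST, the hormone gastrin, stood at 6089 and 3446 CPM in members, a ratio of -0.82 (-0.84 to -0.81) beside -1.20 in non-cycling cells. It had a UMI in 99.9% and 98.8% of members, against 99.6% and 95.9% of non-cycling endocrine cells, and 10 cells held 28.2% and 28.4% of its UMIs in members. GPC3, a surface proteoglycan, stood at 119 and 60.5 CPM in members, with 10.3% and 13.4% of its UMIs in 10 cells.

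Several of the largest differences rested on few cells. MT1B stood at 46.2 and 2.40 CPM, but 1 cell held 66.6% and 10 cells 97.7% of its UMIs in the library labelled no DOX. For MT1M, at 72.9 and 16 CPM, 10 cells held 87.9% of them, for APOA2 71.7%, for AGR2 70.9% and for MT1G 72.1%. CGA, the alpha subunit of glycoprotein hormones, had a log2 ratio of -1.19 with all members and 1.61 (1.34 to 1.89) without called doublets, and 1 cell held 47.6% of its UMIs. Metallothioneins bind zinc and copper, and the median ratio of all 9 was -0.56 in members and -0.47 in non-cycling cells. Counts between these near copies are uncertain.

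Among higher genes, SCT, secretin, stood at 11.6 and 21.6 CPM in members and had a log2 ratio of 0.89 (0.65 to 1.13), beside 1.06 in non-cycling cells. NEAT1, a nuclear long noncoding RNA, stood at 155 and 238 CPM, a ratio of 0.61 (0.55 to 0.68) beside 0.23, and C10orf10 at 29.4 and 49.4, or 0.75 (0.59 to 0.90) beside 0.11. CDKN1A, under the 1.5-fold limit, had a ratio of 0.53 (0.36 to 0.70) in members and -0.02 in non-cycling cells. None of the 20 p53 targets was past the 1.5-fold limit in members. With 1 library per condition, DOX cannot be told apart from any other difference between the libraries.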

How the data were processed

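Live cells of eBCs were profiled with 10x Genomics single-cell RNA sequencing, 1 library per condition. The authors deposited raw counts of UMIs per gene and barcode, not normalized, for 33694 genes. Per the file headers the counts came from Cell Ranger 3.0.2, whereas the submitters' processing notes list Cell Ranger 3.0, kallisto, bustools 0.40.0, Scanpy, Seurat and GRCh38 without roles. The annotation of this counting is not given in the sources used here. Reads of strongly similar genes may be dropped or split in such counting.

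UMIs were summed over the cells of a group and scaled to CPM, with exact Poisson 95% intervals. Ratios have exact conditional binomial 95% intervals and shares exact Clopper-Pearson 95% intervals (scipy 1.17.1, numpy 2.4.6, pandas 2.3.3). With 1 library per condition no test was possible and no p-value is given. Intervals cover counting error only. The libraries held 550240855 and 520849221 UMIs, of which members held 19657374 and 16636603. Doublets were called per library by Scrublet (scanpy 1.11.5, default settings) in barcodes of at least 1000 UMIs, 26.6% and 26.5% of which were called. They were kept in the main values and left out in an alternative. Steps were tested on simulated data, and figures were drawn with matplotlib 3.10.9.

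Members and gene lists were chosen with earlier results of these data known. Genes are named by a rule: the markers and rule genes, up to 6 genes of each list by CPM in members (hormones, endocrine transcription factors, cyclins and CDK inhibitors in full), and the 10 largest and 10 smallest ratios of each comparison past its fold. Promoter windows and their coordinates are from RefSeq (GRCh38.p14). Genes were matched by Ensembl identifier, else by symbol or synonym, for 5435 of 6514 genes (83.4%), with 44 of 54 genes of the G2M list matched. The position of CDKN2C is from the GRCh38 gene annotation by Ensembl identifier. Results for some genes are not reported here.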

Additional observations from a re-analysis of the deposited data

Results flagged for a closer look

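Some genes had counting intervals on opposite sides of 0 in members and in non-cycling endocrine cells when the library labelled DOX was set over that labelled no DOX. The difference itself was not tested. In members the log2 ratio was above 0 for DPP4 (0.19), ZMAT3 (0.21), CPE (0.07), HIST1H1C (0.08), HIST1H4C (0.26), HIST1H1E (0.22), MCM3 (0.12), FBXO5 (0.15), PYY (0.14) and CHGB (0.08). It was below 0 for CDC25B (-0.14). All of these were under the 1.5-fold limit used for single genes.

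For other genes the ratio of cycling over non-cycling endocrine cells had opposite signs in the 2 libraries, again without a test of the difference. In the library labelled no DOX it was below 0 for DPP4 (-0.1), IRX2 (-0.21), HSPA1A (-0.11), ETV1 (-0.28), GAST (-0.29) and CHGB (-0.06), and above 0 for the metallothioneins MT1M (0.22) and MT1B (0.31). In the other library the values were 0.23, 0.15, 0.35, 0.13, 0.09 and 0.08, and -1.21 and -2.49 for MT1M and MT1B, for which 10 cells held 87.9% and 97.7% of the members' UMIs in the library labelled no DOX.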

How the results depend on the processing

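The share of cycling endocrine cells differed between the libraries (DOX minus no DOX) by -0.28 percentage points (-0.54 to -0.03), and by -0.67 when the mitochondrial limit was 10%. The interval held 0 without called doublets (-0.17, -0.41 to 0.08), at 8 UMIs of MKI67 and TOP2A (-0.18, -0.40 to 0.03) and in thinned cells (-0.18, -0.41 to 0.05). Genes at least 2-fold higher in members numbered 420, and 757 without called doublets, 212 at 50 CPM and 1610 with 1 UMI in each sum as the only filter. Genes at least 2-fold lower numbered 4, and 70, 2 (MKI67 and TOP2A at 2 UMIs), 8 (CPM without INS, GCG and SST), 9 (mean of CPM per cell), 0 (non-cycling cells weighted to the members' hormone classes) and 118 (1 UMI) under the alternatives, the first being without called doublets. Genes at least 1.5-fold higher in the library labelled DOX numbered 11, and 27 without called doublets, 4 at 50 CPM and 1684 at 1 UMI. Those 1.5-fold lower numbered 18, and 58, 9 and 1547 in the same order. The FEV-rich share of members exceeded that of non-cycling cells by 12.0 percentage points with both libraries pooled, and by 9.01 without called doublets. The log2 ratio of cycling shares, FEV-rich over INS-rich, was 1.18 with the cells of both libraries pooled, 1.38 at a mitochondrial limit of 10% and 0.98 in thinned cells. FEV itself was at -0.092 against class-weighted cells, a value that the FEV limit of the classes sets in part. Between S-most and G2M-most terciles, INS was -0.07 on the log2 scale, 0.056 at the 10% limit, -0.21 without called doublets and -0.068 at 8 UMIs of MKI67 and TOP2A. The other 48 recomputed summary values stayed within 1.5 times (counts) or within the counting interval (shares and ratios). Of the recomputed ratios of single genes, 30 left that interval and 23 stayed in it, besides FEV. Against class-weighted cells the mean ratio over the libraries was -0.91 for CDKN1C (from -1.11), 0.34 for PPY (from 0.72) and -0.81 for MAFA (from -1.13). Other than the filters, which change the genes compared, the cause of these shifts was not tested. No paired analysis was possible because there was 1 library per condition. Without replicates, depth sets only the counting error.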
